A study of Rattus norvegicus with 60 samples.

Results

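Glutathione and thioredoxin are the main small thiol systems of the cell, and 8 genes that supply them were followed in liver of male rats of the F344/N strain: Gclc, Gclm, Gss and Gsr for glutathione, and Txn1, Txnrd1, Srxn1 and Prdx1 for thioredoxin. The genes were chosen on their measured response to dose in these arrays, including the split of Gclm and Gsr against Gclc, Txnrd1 and Srxn1. Their changes from vehicle and their unequal course are therefore given as a description, and calls among them are counted but support nothing. Of the 8 genes, 7 had a probe set annotated to that gene alone, out of 14217 genes with such a probe set on the array. They had 11 such probe sets of 31042 in all, and the one with the highest mean over the 60 arrays stood for each gene. The only probe set for Prdx1, a peroxiredoxin that reduces hydrogen peroxide with thioredoxin, was also annotated to Prdx1l1, and no value is given for it.

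Rats aged 5 to 6 weeks at the start received N,N-dimethyl-p-toluidine (DMPT), a curing accelerator of acrylic cements, or p-toluidine, which lacks the methyl groups that DMPT carries on its nitrogen. Both were given by gavage in corn oil at 2.5 ml/kg on 5 consecutive days, at daily doses of 1, 6, 20, 60 and 120 mg/kg, and each chemical had its own corn oil vehicle group. The 12 groups had 5 arrays each, and each array held RNA from the left lateral liver lobe. All animals were of 1 strain and sex with no genetic change, all groups including the controls received corn oil, the p-toluidine doses are those of the sample labels, and no label links an array to an animal or a cage, so the p-values rest on the spread among the arrays.

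Glutathione is made in 2 steps. Glutamate-cysteine ligase, with the catalytic subunit Gclc and the modifier subunit Gclm, joins glutamate to cysteine, and glutathione synthetase (Gss) adds glycine. Glutathione reductase (Gsr) returns oxidized glutathione to its reduced form with NADPH, and thioredoxin reductase (Txnrd1), a selenoprotein, does the same for thioredoxin (Txn1). Sulfiredoxin (Srxn1) repairs peroxiredoxins that peroxide has over-oxidized. The transcription factor NRF2, the product of Nfe2l2, is known to bind antioxidant response elements near many of these genes, and the liver, which exports glutathione and conjugates foreign compounds with it, makes more glutathione than most organs.

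The deposited values are on the log2 scale, and a difference of 1 is a doubling. The 7 genes, chosen in part for their split, did not move together (the plot of log2 values by dose). Gclm, Gsr and Txn1 were higher than vehicle from the middle doses on, to 1.69-, 1.99- and 1.33-fold at 120 mg/kg of DMPT and 2.26-, 2.58- and 1.57-fold at 120 mg/kg of p-toluidine. Txnrd1 was lower, to 1.33-fold below vehicle at 60 mg/kg of DMPT and 1.26-fold below it at 60 mg/kg of p-toluidine. Gclc and Srxn1 were lowest at 20 mg/kg of both chemicals, and at 120 mg/kg Gclc stood above the vehicle mean and Srxn1 within 0.03 of it. Gss stood near vehicle except at 120 mg/kg of p-toluidine.

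**Figure D1:**
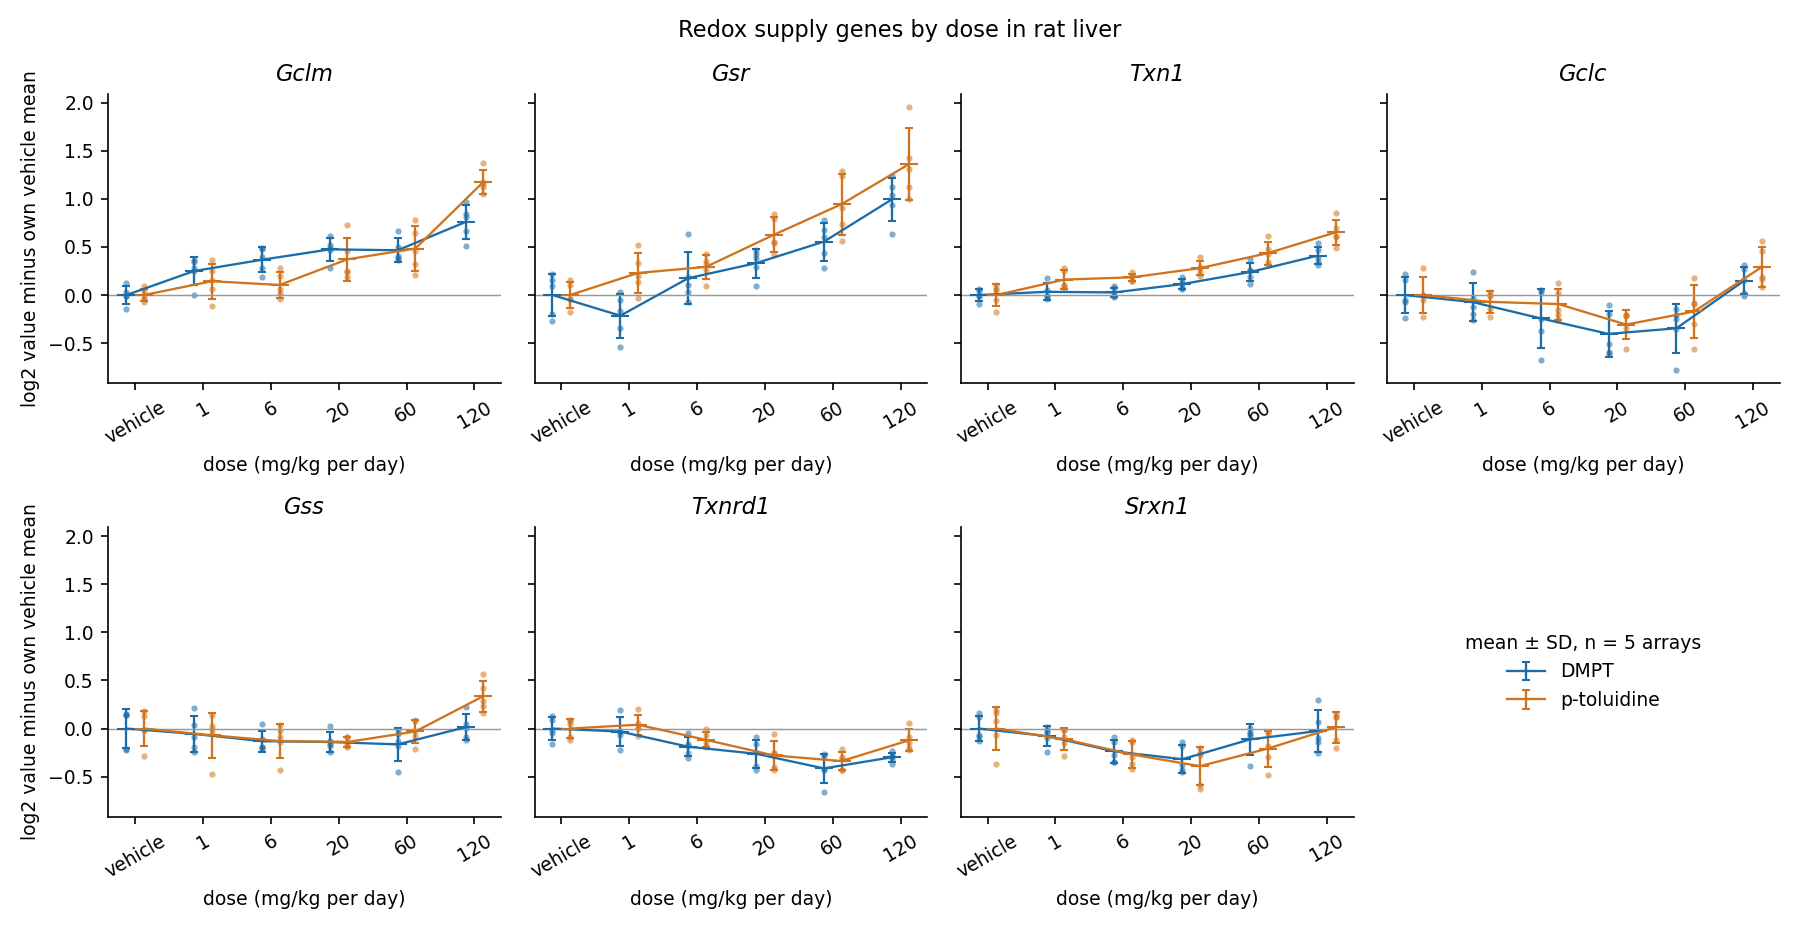
Log2 value of each redox supply gene minus the mean of its own vehicle group (vertical axis) by dose in mg/kg per day (horizontal axis, doses evenly spaced, not to scale), for DMPT and p-toluidine. Points are single arrays, horizontal marks and bars are the mean ± SD of 5 arrays. Gclm, Gsr, Txn1, Gclc and Gss have their highest mean at the highest dose in both chemicals. Gclc and Srxn1 have their lowest mean at 20 mg/kg and were not called at any dose.

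The stretch from 250 bases before to 50 after the transcription start was read from the RefSeq table of assembly GRCr8. It was there for 7 of the 8 genes, all but Gsr (8 windows, Txnrd1 having 2). It was searched on both strands for the core of the antioxidant response element, TGACNNNGC, and its form TGAGNNNGC. The windows of 4 genes that differed in their dose pattern are shown, to set genes with a match to this element beside 1 without. Gclm is at chr2:213031885-213032184 on the plus strand, Gclc at chr8:87510226-87510525 on the plus strand, Txnrd1 at chr7:22755855-22756154 on the minus strand and Srxn1 at chr3:161064562-161064861 on the plus strand, each written 5′ to 3′ along the gene with matches in capitals.
Gclm: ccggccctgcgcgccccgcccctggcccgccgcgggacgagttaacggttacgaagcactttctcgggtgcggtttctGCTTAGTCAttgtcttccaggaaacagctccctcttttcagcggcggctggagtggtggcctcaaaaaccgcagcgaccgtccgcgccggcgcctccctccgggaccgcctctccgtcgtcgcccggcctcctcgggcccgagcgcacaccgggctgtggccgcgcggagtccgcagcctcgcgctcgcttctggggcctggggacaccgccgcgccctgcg
Gclc: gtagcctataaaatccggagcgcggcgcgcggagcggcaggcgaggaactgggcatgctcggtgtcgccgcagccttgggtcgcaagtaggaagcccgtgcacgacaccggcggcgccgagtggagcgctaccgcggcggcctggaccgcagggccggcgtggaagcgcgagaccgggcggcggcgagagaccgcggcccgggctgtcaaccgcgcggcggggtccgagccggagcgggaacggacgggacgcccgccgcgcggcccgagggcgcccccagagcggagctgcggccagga
Txnrd1: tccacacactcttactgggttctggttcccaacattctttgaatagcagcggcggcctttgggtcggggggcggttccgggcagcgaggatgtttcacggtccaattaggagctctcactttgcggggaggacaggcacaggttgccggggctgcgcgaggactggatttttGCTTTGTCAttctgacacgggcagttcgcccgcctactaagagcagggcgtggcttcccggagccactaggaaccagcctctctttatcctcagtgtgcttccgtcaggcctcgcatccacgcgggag
Srxn1: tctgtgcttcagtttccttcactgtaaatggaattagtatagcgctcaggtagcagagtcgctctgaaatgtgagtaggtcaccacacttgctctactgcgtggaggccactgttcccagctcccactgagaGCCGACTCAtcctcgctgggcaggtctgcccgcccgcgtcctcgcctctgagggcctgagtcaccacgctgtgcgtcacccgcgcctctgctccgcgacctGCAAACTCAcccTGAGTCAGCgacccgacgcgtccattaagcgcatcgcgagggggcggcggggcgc
Gclm, which was higher than vehicle from the middle doses on, held 1 match, starting at position −172 from the start site. Txnrd1, which was lower, held 1 at −78 in the window shown and none in its other window. Srxn1 held 3, all of the form TGAGNNNGC, at −118, −17 and −5, and Prdx1 held 1 at −135. The windows of Gclc, Gss and Txn1 held none. In all, 4 of the 8 windows held a match, against 27.1% of 33469 RefSeq windows of the same length (12.1% for the first form and 17.2% for the other). Among the genes with a match, Gclm was higher than vehicle, Txnrd1 was lower and Prdx1 had no value. Srxn1 had its lowest mean at a middle dose but was not called. A missing match says only that these letters are not in the window.

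Of the subunits of glutamate-cysteine ligase, Gclm was the higher one. In the DMPT series its 5 vehicle arrays read 8.82, 8.68, 8.82, 8.95 and 8.86, and the 5 arrays at 120 mg/kg read 9.67, 9.80, 9.50, 9.64 and 9.34. Every array at 120 mg/kg lay above every vehicle array. The change from vehicle was 0.25 ± 0.09 (standard error of the limma fit, n = 5 arrays per group, as for all changes below) at the lowest dose, and 0.37, 0.48, 0.47 and 0.76, each ± 0.09, at the next ones up to 120 mg/kg. The values at 20 and 60 mg/kg thus differed by less than their standard errors, and the step to 120 mg/kg was 0.29.

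In the p-toluidine series, the vehicle arrays for Gclm read 8.33, 8.29, 8.45, 8.39 and 8.31, and those at 120 mg/kg read 9.73, 9.50, 9.40, 9.53 and 9.48. All arrays from 20 mg/kg on lay above all vehicle arrays, while those at 1 and 6 mg/kg overlapped them. The changes were 0.14, 0.11, 0.37, 0.48 and 1.18, each ± 0.10, from the lowest to the highest dose. More of the change came in the last step here, 0.69 from 60 to 120 mg/kg, than in the DMPT series.

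Gclc, the catalytic subunit, had its lowest mean at 20 mg/kg in the probe set that stood for it. That probe set was not called at any dose of either chemical. Its DMPT vehicle arrays read 8.38, 8.21, 8.67, 8.60 and 8.40, its arrays at 20 mg/kg read 7.86, 7.94, 8.35, 8.25 and 7.84, and its arrays at 120 mg/kg read 8.76, 8.72, 8.61, 8.48 and 8.44. At 20 mg/kg 3 of 5 arrays lay below all vehicle arrays and 2 lay within their range, and at 120 mg/kg the ranges overlapped. The changes were −0.07, −0.24, −0.40, −0.35 and 0.15, each ± 0.13, from the lowest to the highest dose, and the mean was 0.50 higher at 120 than at 60 mg/kg.

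The same course was seen with p-toluidine, where the Gclc vehicle arrays read 7.92, 7.92, 7.88, 7.70 and 8.21, those at 20 mg/kg 7.72, 7.59, 7.37, 7.72 and 7.70, and those at 120 mg/kg 8.49, 8.11, 8.09, 8.01 and 8.38. The groups overlapped at both doses. The changes were −0.07, −0.09, −0.31, −0.17 and 0.29, each ± 0.11, with a step of 0.46 from 60 to 120 mg/kg. The other Gclc probe set had a mean of 7.15 over the 60 arrays against 8.08. With DMPT it was below the vehicle mean from the lowest dose on (−0.35, −0.33, −0.58, −0.48 and −0.14, each ± 0.14), and it was called at 20 and 60 mg/kg. With p-toluidine it read 0.04, −0.02, −0.20, −0.27 and 0.14, each ± 0.13, and was lowest at 60 mg/kg. Both probe sets were higher at 120 than at 60 mg/kg in both series, but with DMPT this one stayed below the vehicle mean.

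The unequal change of the subunits can be read within each array, which removes anything that shifts both probe sets alike (the plot of partner differences). Gclm minus Gclc averaged 0.38 ± 0.13 (SD, n = 5) in the DMPT vehicle arrays and 1.26 ± 0.25 at 20 mg/kg, a change of 0.88. In the DMPT series all dosed arrays lay above all vehicle arrays at each of the 5 doses, with changes of 0.32, 0.61, 0.88, 0.81 and 0.61. With p-toluidine the groups overlapped at 1 and 6 mg/kg and lay apart from 20 mg/kg on, with changes of 0.21, 0.20, 0.68, 0.66 and 0.88. The mean difference thus lay above that of vehicle at every dose of both series. The doses of a series share their vehicle arrays and are not independent. At 1 and 6 mg/kg of p-toluidine the changes were no larger than the SDs of those groups (0.24 and 0.21). Gclm and Gclc were chosen as going apart, so these differences are given as a description. These are differences between probe sets in how much they changed, and they do not give the ratio of the transcripts.

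**Figure D2:**
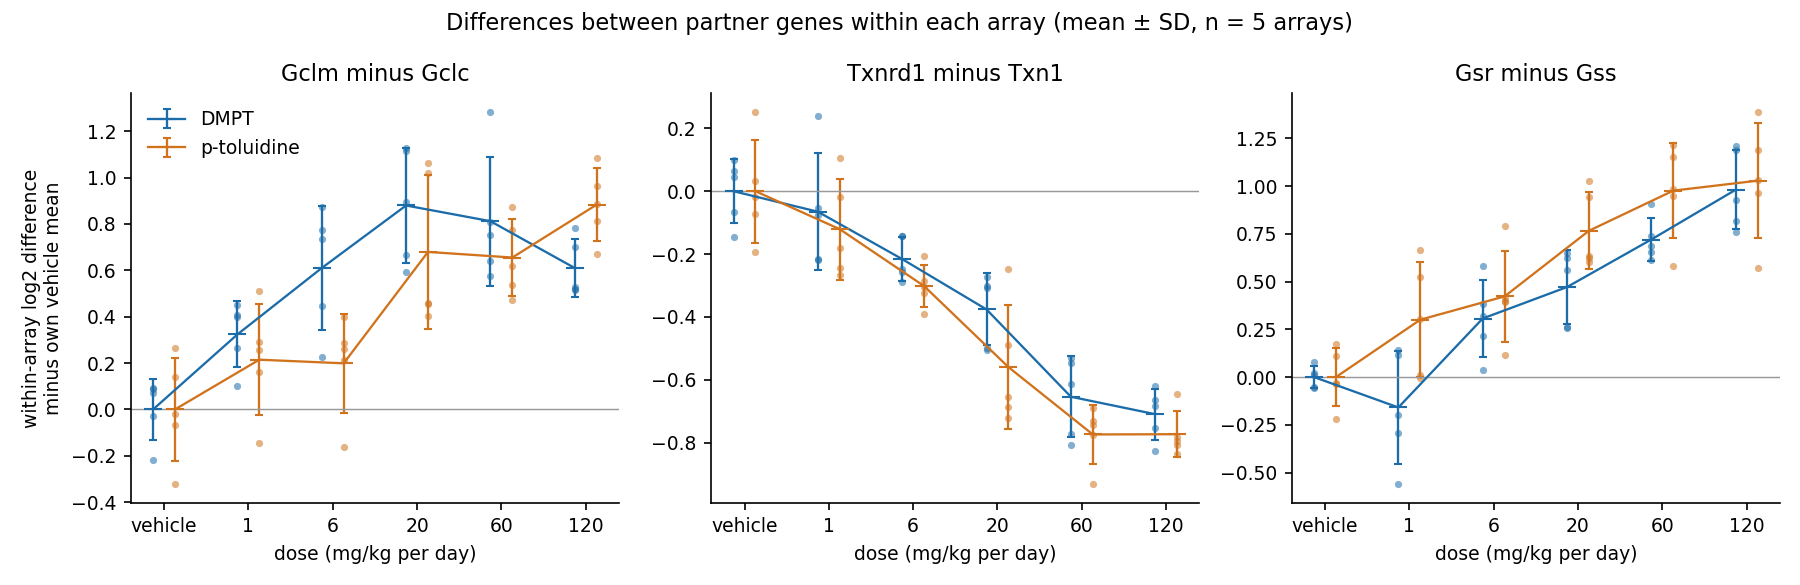
Difference between the log2 values of a pair of genes within each array, minus the mean of that difference in the own vehicle group (vertical axis), by dose in mg/kg per day (horizontal axis, doses evenly spaced). Points are single arrays and bars the mean ± SD of 5 arrays; Gclm gained on Gclc, Txnrd1 lost against Txn1 and Gsr gained on Gss in both chemicals.

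Gss, which completes glutathione, moved least with DMPT. Its changes were −0.06, −0.13, −0.14, −0.16 and 0.01, each ± 0.10, and dosed and vehicle arrays overlapped at every dose. With p-toluidine the vehicle arrays read 6.22, 6.07, 5.79, 6.07 and 6.26 and those at 120 mg/kg 6.50, 6.36, 6.25, 6.32 and 6.65, a change of 0.34 ± 0.10. There, 1 dosed array lay below the highest vehicle array, and the changes at the 4 lower doses ran from −0.14 to −0.03.

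Gsr, the enzyme that recycles glutathione, had the largest change of the 7 genes at 120 mg/kg in both series. With DMPT the vehicle arrays read 6.82, 6.74, 7.17, 7.11 and 7.24, and those at 120 mg/kg 8.06, 8.13, 7.95, 8.25 and 7.65. The groups did not overlap. The changes were −0.21, 0.18, 0.33, 0.56 and 0.99, each ± 0.13. With p-toluidine the vehicle arrays read 6.28, 6.13, 6.00, 6.34 and 6.14, and those at 120 mg/kg 7.17, 7.49, 7.30, 7.60 and 8.14. Replicate 5 was the highest, and all 5 lay above the vehicle range. The changes were 0.23, 0.29, 0.63, 0.95 and 1.36, each ± 0.14. Against Gss within each array, Gsr gained 0.98 at 120 mg/kg of DMPT and 1.03 at 120 mg/kg of p-toluidine, with no overlap with vehicle from 20 mg/kg on in either series.

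In the thioredoxin system the carrier and its reductase went opposite ways. Txn1 varied little within groups, with SDs of 0.0511 to 0.0948 over the DMPT groups and 0.0393 to 0.133 over the p-toluidine groups. With DMPT its vehicle arrays read 10.86, 10.93, 10.94, 11.02 and 11.00 and its arrays at 120 mg/kg 11.41, 11.33, 11.49, 11.30 and 11.27. The groups lay apart, and the changes were 0.03, 0.03, 0.11, 0.24 and 0.41, each ± 0.06. With p-toluidine the vehicle arrays read 10.24, 10.08, 10.18, 10.20 and 9.95 and those at 120 mg/kg 10.82, 10.74, 10.62, 10.75 and 10.98, and all dosed arrays lay above all vehicle arrays from 6 mg/kg on. The changes were 0.16, 0.18, 0.28, 0.44 and 0.65, each ± 0.07.

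Txnrd1, the reductase, read 7.36, 7.24, 7.49, 7.53 and 7.38 in the DMPT vehicle arrays, 6.97, 7.11, 6.75, 6.98 and 7.13 at 60 mg/kg and 7.11, 7.17, 7.12, 7.09 and 7.03 at 120 mg/kg. All arrays at 60 and at 120 mg/kg lay below all vehicle arrays. The changes were −0.03, −0.19, −0.26, −0.41 and −0.30, each ± 0.08. With p-toluidine the vehicle arrays read 6.67, 6.63, 6.84, 6.80 and 6.83, those at 60 mg/kg 6.44, 6.32, 6.33, 6.46 and 6.54, and those at 120 mg/kg 6.67, 6.55, 6.60, 6.54 and 6.81. The arrays lay below vehicle at 60 mg/kg and overlapped it at 120 mg/kg. The changes were 0.04, −0.12, −0.28, −0.34 and −0.12, each ± 0.07. The other Txnrd1 probe set read −0.47 ± 0.10 at both 60 and 120 mg/kg of DMPT, and −0.30 ± 0.13 and −0.15 ± 0.13 at those doses of p-toluidine.

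Within each array, Txnrd1 lost against Txn1 by −0.71 at 120 mg/kg of DMPT and −0.77 at 120 mg/kg of p-toluidine. The difference lay below all vehicle arrays from 20 mg/kg of DMPT and from 6 mg/kg of p-toluidine on. The gap was as wide at 60 as at 120 mg/kg of p-toluidine (−0.77 at both), since both genes read higher at 120 mg/kg by a like amount (0.22 each).

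Srxn1, the repair enzyme of peroxiredoxins, had its lowest mean at 20 mg/kg in both series, as Gclc did, and was not called at any dose. With DMPT its vehicle arrays read 5.83, 5.58, 5.87, 5.64 and 5.62, those at 20 mg/kg 5.57, 5.28, 5.33, 5.25 and 5.52, and those at 120 mg/kg 5.77, 5.46, 6.01, 5.61 and 5.57. All 5 arrays at 20 mg/kg lay below vehicle, and those at 120 mg/kg overlapped it. The changes were −0.08, −0.24, −0.32, −0.11 and −0.03, each ± 0.09. With p-toluidine the changes were −0.11, −0.27, −0.39, −0.21 and 0.01, each ± 0.11, and the vehicle arrays, 4.56, 5.01, 5.09, 5.12 and 4.86, overlapped those at 20 mg/kg, 4.67, 4.35, 4.65, 4.72 and 4.30. The other 2 Srxn1 probe sets were dim, with means of 3.36 and 1.63, and their changes ran from −0.23 to 0.10.

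Counts of calls describe the same pattern. A probe set was called where limma's p, adjusted by Benjamini-Hochberg over all 31042 probe sets, did not exceed 0.05, and the share of all 14217 genes called is given beside each count. None of the 7 genes was called at 1 mg/kg of either chemical, where no probe set at all was called, and at an unadjusted p of 0.05 limma gave 1643 probe sets for DMPT and 1992 for p-toluidine. At 6 mg/kg none was called either, against 0.0774% of genes higher and 0.134% lower with DMPT and none with p-toluidine. At 20 mg/kg Gclm was called higher with DMPT (1.74% of all genes higher, 1.6% lower) and Gsr with p-toluidine (0.626% higher, 0.457% lower).

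At 60 mg/kg Gclm, Gsr and Txn1 were called higher and Txnrd1 lower in both series, against 2.42% higher and 4.89% lower of all genes with DMPT and 3.01% and 3.59% with p-toluidine. At 120 mg/kg the same 3 genes were called higher and Txnrd1 lower with DMPT (5.29% and 7.43% of all genes). With p-toluidine Gclm, Gsr, Gss and Txn1 were called higher and none lower (7.84% and 6.91%). At 120 mg/kg of DMPT all dosed arrays lay above all vehicle arrays for 3 of the 7 genes and below for 1, against 4.7% and 6.73% of all genes. With p-toluidine these were 3 and 0, against 6.25% and 5.32%. The genes were chosen on these contrasts, so nothing is read from the counts. The median change of the 7 genes at 120 mg/kg was 0.15 with DMPT and 0.34 with p-toluidine, and that of all genes was −0.0014 and −0.0025.

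A few of these calls rested on single arrays or on the fit. The call of Gss at 120 mg/kg of p-toluidine was lost with only the groups compared in the fit, with a beta-actin covariate, and without vehicle replicate 2, 3 or 4 or dosed replicate 1 or 5. Gsr at 20 mg/kg of p-toluidine was lost without vehicle replicate 2 or 3 or dosed replicate 2 or 3, and with a beta-actin covariate. Txnrd1 at 120 mg/kg of DMPT was lost without vehicle replicate 4, and Txn1 at 60 mg/kg of DMPT without dosed replicate 1 or with only the 2 groups compared in the fit.

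The 2 chemicals differ by the methyl groups on the nitrogen, and their responses can be compared at equal dose (the plot of DMPT against p-toluidine responses). Each difference is the DMPT change from its vehicle minus the p-toluidine change from its vehicle, tested over 60 arrays in limma. Levels were not compared, because the 2 sets of arrays appear to have been normalized apart. Each chemical has its own set of arrays, so a difference in response between the chemicals cannot be told apart from one between the sets. At 120 mg/kg the difference was negative for 7 of 7 genes, that is, the change was higher with p-toluidine. None was called, and 0.0141% of all genes (2 genes) were. Over all genes the median difference was −0.0062, with quartiles of −0.10 and 0.09. The 7 genes were read on the same arrays, so their signs are not independent. The differences were −0.42 ± 0.14 for Gclm (95% interval −0.69 to −0.14, limma adjusted p = 0.401), −0.37 ± 0.20 for Gsr (−0.77 to 0.03, adjusted p = 0.791), −0.32 ± 0.14 for Gss (−0.61 to −0.04, adjusted p = 0.674) and −0.24 ± 0.09 for Txn1 (−0.42 to −0.07, adjusted p = 0.505).

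For the genes that were lower or dipped, the differences at 120 mg/kg were smaller in the probe sets that stood for them. They were −0.18 ± 0.11 for Txnrd1 (95% interval −0.39 to 0.04), −0.14 ± 0.18 for Gclc (−0.50 to 0.22) and −0.04 ± 0.14 for Srxn1 (−0.33 to 0.25). The other probe sets of Txnrd1 and Gclc gave −0.31 ± 0.16 and −0.28 ± 0.19, so this order depended on the probe set. Over the 5 doses 35 differences were tested, 0 were called, 5 had an unadjusted p under 0.05 in limma, and 25 were negative. These 35 share the vehicle arrays and are not independent. The 95% intervals reached up to 0.40 on either side of the estimate, for Gsr, and the missing calls do not show that the 2 chemicals act alike. At 20 mg/kg Gclm differed by 0.10 ± 0.14 and Gclc by −0.10 ± 0.18.

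**Figure D3:**
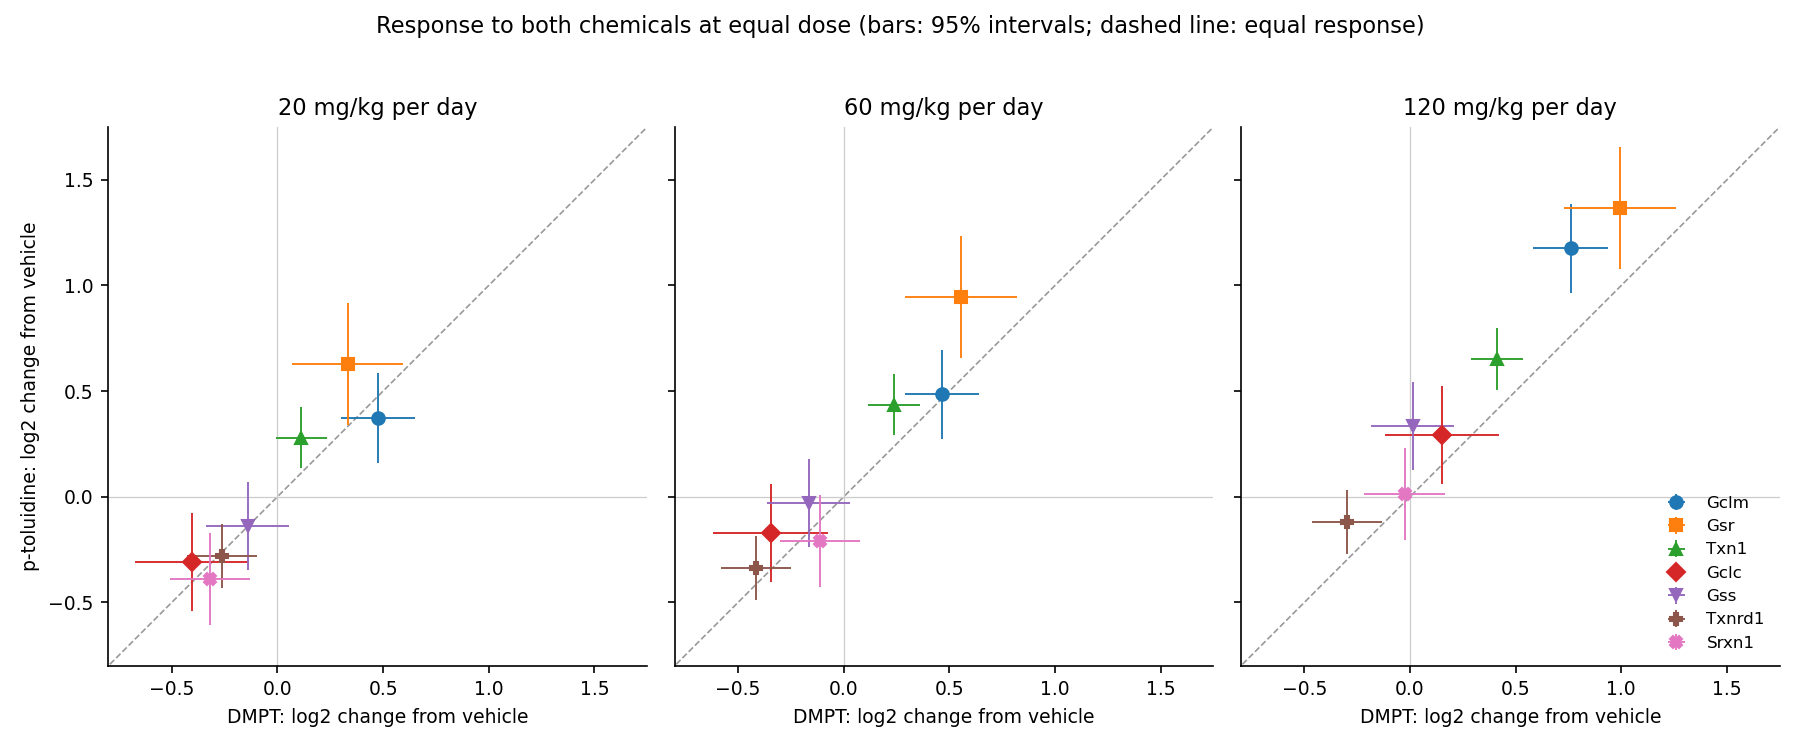
Log2 change from vehicle with DMPT (horizontal axis) against that with p-toluidine (vertical axis) for the 7 redox supply genes at 20, 60 and 120 mg/kg per day. Bars are 95% intervals of the limma fit and the dashed line marks equal response. At 120 mg/kg all 7 points lie above the line, the 7 genes being read on the same arrays.

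The genes most like each redox supply gene over the 60 arrays, by Pearson's r of the deviation from the own vehicle mean, are named here, 3 for each. These values hold the dose groups and the shared arrays within them, and are given as a description. Gclm was nearest to Ugdh (r = 0.89), which makes UDP-glucuronic acid, to the reductase Ptgr1 (0.88) and to the glutathione peroxidase Gpx2 (0.87). Gsr was nearest to Atp5if1 (0.91), an inhibitor of the mitochondrial ATP synthase, to the aldo-keto reductase Akr7a3 (0.90) and to Aldh1l1 (0.90), a folate enzyme that makes NADPH. Txn1 was nearest to Atp5if1, Gsr and Mgst2 (0.89 each).

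For the other 4 genes the nearest r was lower, between 0.60 and 0.81. Txnrd1 was nearest to the ribosome assembly factor Ebna1bp2 (0.81), the pyrimidine enzyme Umps (0.77) and the chaperonin subunit Cct5 (0.74). Gclc was nearest to the nuclear pore protein Ndc1 (0.80), Tmem41a (0.76) and the elongation factor Eef1b2 (0.75), and Gss to the ribosomal scaffold Rack1 (0.77), Tmem120a (0.75) and Cmtm8 (0.73). Srxn1 had no close match, with Hspb8 first at 0.60, then Phlda3 (0.57) and Trim47 (0.56). Among the 7 genes themselves r was 0.89 for Gsr with Txn1, 0.81 for Gclm with Gsr, 0.67 for Gclc with Gss, 0.31 for Gclm with Gclc and −0.28 for Txnrd1 with Txn1. For Srxn1 it was 0.45 with Gclc, 0.37 with Txnrd1 and 0.07 with Gclm.

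The rest of the pathway was followed in 130 further genes on the array. Of them, 25 rose and 11 fell at 120 mg/kg of DMPT and 37 rose and 14 fell at 120 mg/kg of p-toluidine (limma, adjusted over all probe sets), with medians of 0.02 and 0.10. Of all genes, 5.29% were called higher and 7.43% lower at 120 mg/kg of DMPT and 7.84% and 6.91% at 120 mg/kg of p-toluidine. At 60 mg/kg the counts were 18 and 10 with DMPT (2.42% and 4.89% of all genes) and 22 and 6 with p-toluidine (3.01% and 3.59%). At 20 mg/kg they were 10 and 6 with DMPT (1.74% and 1.6%) and 7 and 1 with p-toluidine (0.626% and 0.457%), and at 6 mg/kg 3 and 0 with DMPT (0.0774% and 0.134%) and 0 and 0 with p-toluidine. None was called in the difference between the chemicals at any dose.

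Larger changes were seen among other well-known NRF2 targets. Of 16 on the array, 10 rose and 1 fell with DMPT and 12 rose and 1 fell with p-toluidine at 120 mg/kg, against 5.29% higher and 7.43% lower of all genes with DMPT and 7.84% and 6.91% with p-toluidine. The medians were 0.90 and 1.04. Gstp1, a pi-class glutathione S-transferase, rose by 5.91 ± 0.34 (adjusted p = 2.43e-13) and 6.41 ± 0.32 (7.35e-15), higher in 5 of 5 arrays in both series. Akr7a3 rose by 3.69 ± 0.22 and 4.22 ± 0.23, the aldo-keto reductase Akr1b8 by 3.08 ± 0.39 and 4.15 ± 0.26, and the quinone reductase Nqo1 by 2.72 ± 0.18 and 2.82 ± 0.19, in DMPT and p-toluidine respectively. Against these, the largest change among the redox supply genes was 1.36 (the plot of pathway genes at the highest dose).

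**Figure D4:**
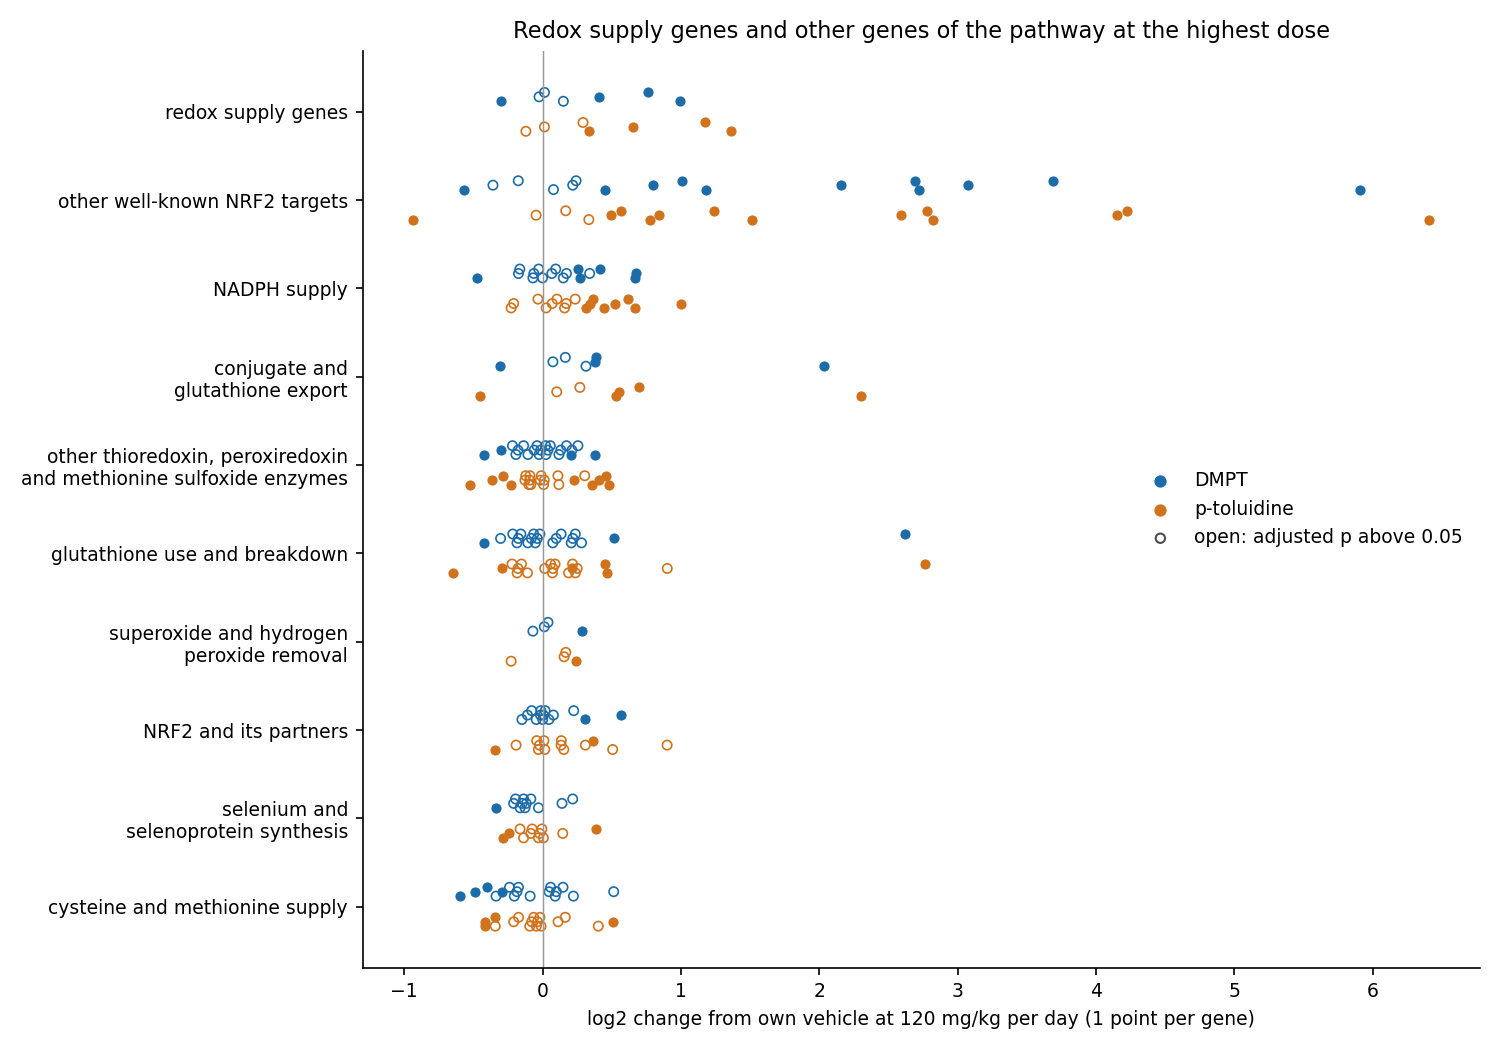
Log2 change from the own vehicle group at 120 mg/kg per day (horizontal axis) for each gene of 10 groups (rows), with DMPT above and p-toluidine below in each row. Filled points were called in limma after adjustment over all probe sets, open points were not; the redox supply genes span −0.30 to 1.36, and Gstp1 reaches 6.41.

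NADPH is the reductant that Gsr and Txnrd1 use. Of 17 genes of its supply, 5 rose and 1 fell with DMPT and 8 rose and 0 fell with p-toluidine at 120 mg/kg, against 5.29% higher and 7.43% lower of all genes with DMPT and 7.84% and 6.91% with p-toluidine. Aldh1l1 rose by 0.68 ± 0.08 (limma adjusted p = 1.03e-06) and 1.00 ± 0.08 (5.1e-10), and the pentose phosphate enzyme Pgd by 0.67 ± 0.12 (0.000242) and 0.62 ± 0.10 (4.45e-05). Transketolase (Tkt) rose by 0.67 ± 0.12 with p-toluidine and read 0.34 ± 0.12 with DMPT (adjusted p = 0.0588). The malic enzyme Me1 rose by 0.42 ± 0.09 and 0.52 ± 0.10, calls that were lost when all its probe sets were averaged (0.27, adjusted p = 0.081, and 0.33, 0.108).

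At 120 mg/kg, 2 of 21 genes that use or break down glutathione rose and 1 fell with DMPT. With p-toluidine 4 rose and 2 fell. Of all genes, 5.29% were higher and 7.43% lower with DMPT and 7.84% and 6.91% with p-toluidine. Gpx2, a glutathione peroxidase best known from gut epithelium, rose by 2.62 ± 0.20 (limma adjusted p = 1.05e-10) and 2.76 ± 0.19 (8.27e-12), while Gpx1, the main cytosolic form, fell by 0.42 ± 0.06 (1.25e-05) and 0.65 ± 0.08 (6.92e-07). Ggt1, which starts the breakdown of glutathione outside the cell, rose by 0.52 ± 0.12 and 0.46 ± 0.10. Chac1, which cleaves it inside, read −0.06 ± 0.38 and 0.90 ± 0.39 and was not called.

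In export at 120 mg/kg, 3 of 7 genes rose and 1 fell with DMPT and 4 rose and 1 fell with p-toluidine. Of all genes, 5.29% were higher and 7.43% lower with DMPT and 7.84% and 6.91% with p-toluidine. The conjugate pump Abcc3 rose by 2.04 ± 0.28 and 2.30 ± 0.31, and Slc25a39, which carries glutathione into mitochondria, by 0.39 ± 0.08 and 0.69 ± 0.10. Abcg2 rose by 0.55 ± 0.10 with p-toluidine and read 0.31 ± 0.14 with DMPT. Abcc4 was called at 0.38 ± 0.10 and 0.53 ± 0.15, calls that were lost without DMPT vehicle replicate 1 (adjusted p = 0.0513) and without p-toluidine vehicle replicate 3 (0.0547) or dosed replicate 1 (0.0569).

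Cysteine limits glutathione synthesis. Of 17 genes that supply cysteine and methionine or put them to other uses, 0 rose and 4 fell at 120 mg/kg of DMPT. At 120 mg/kg of p-toluidine 1 rose and 3 fell. The shares of all genes were 5.29% higher and 7.43% lower with DMPT and 7.84% and 6.91% with p-toluidine. Slc1a4, a neutral amino acid carrier, read 0.51 ± 0.19 and 0.40 ± 0.17 and was not called. Csad, which diverts cysteine to taurine, fell by 0.49 ± 0.11 with DMPT and read −0.21 ± 0.11 with p-toluidine; without the 5 DMPT arrays of narrow spread the DMPT call was lost (limma adjusted p = 0.0569). Slc3a2, a heavy chain of amino acid transporters, was called at −0.60 ± 0.18 with DMPT (limma adjusted p = 0.0267). That call was lost without vehicle replicate 1, 3 or 4 or dosed replicate 1 or 2 (0.0506 to 0.105), and without the arrays of narrow spread (0.0846). Its partner Slc7a11, the cystine carrier, was dim (1.60 in p-toluidine vehicle) and was called at 0.51 ± 0.14 with p-toluidine, a call lost without vehicle replicate 2 or 3 or dosed replicate 2 (0.0521 to 0.0824).

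At 120 mg/kg, 2 of 22 other thioredoxin, peroxiredoxin and methionine sulfoxide enzymes rose and 2 fell with DMPT. With p-toluidine 5 rose and 4 fell. Beside the shares of all genes, 5.29% higher and 7.43% lower with DMPT and 7.84% and 6.91% with p-toluidine, nothing is read from these counts or from those of the 2 lists that follow. The peroxiredoxin Prdx2 rose by 0.38 ± 0.08 and 0.48 ± 0.07, and Txnip, which binds and inhibits thioredoxin, fell by 0.52 ± 0.11 with p-toluidine and read −0.19 ± 0.10 with DMPT. Of the sestrins, stress-induced regulators, those called at 120 mg/kg were Sesn3 at 0.46 ± 0.11 with p-toluidine (lost with a beta-actin covariate, limma adjusted p = 0.0637) and Sesn2 at −0.42 ± 0.13 with DMPT (0.0381), which 11 alternatives lost, at up to 0.22 without the arrays of narrow spread. Of these, vehicle replicates 1, 2 and 4 and dosed replicates 1, 2 and 5, each left out, gave 0.0509 to 0.151. Of 12 genes of selenium handling and of selenoproteins, 0 rose and 1 fell with DMPT and 1 rose and 2 fell with p-toluidine. Selenos fell by 0.34 ± 0.07 with DMPT (limma adjusted p = 0.00146) and was called at −0.24 ± 0.07 with p-toluidine, a call lost without vehicle replicate 1, 4 or 5 or dosed replicate 1 or 2 (0.0536 to 0.107), with only the groups compared (0.0618) and with a beta-actin covariate (0.192). With p-toluidine Pstk (0.39 ± 0.11) and Sephs2 (−0.29 ± 0.08), enzymes of selenocysteine synthesis, were also called. Their calls were lost without vehicle replicate 2 (0.056 and 0.0501), that of Pstk also without dosed replicate 1 (0.052) and that of Sephs2 without vehicle replicate 4 (0.0566). The elongation factor Eefsec read −0.20 ± 0.08 with DMPT and −0.09 ± 0.08 with p-toluidine and was not called at 120 mg/kg. It was called lower at 60 mg/kg of DMPT. Of 4 superoxide and peroxide enzymes, catalase (Cat) was called in both, at 0.29 ± 0.06 with DMPT and 0.24 ± 0.07 with p-toluidine, the latter lost without vehicle replicate 2, 3 or 4 or dosed replicate 1, 2 or 3 (0.0519 to 0.0839) and with a beta-actin covariate (0.231). The superoxide dismutases Sod1, Sod2 and Sod3 were not called at 120 mg/kg. They read 0.01 ± 0.06, 0.04 ± 0.07 and −0.07 ± 0.13 with DMPT and 0.16 ± 0.06, 0.17 ± 0.08 and −0.23 ± 0.12 with p-toluidine. Sod2 was called higher at 60 mg/kg of p-toluidine.

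Among 14 genes of NRF2 and its partners, 2 rose and 0 fell with DMPT and 1 rose and 1 fell with p-toluidine at 120 mg/kg, against 5.29% higher and 7.43% lower of all genes with DMPT and 7.84% and 6.91% with p-toluidine. The related factor Nfe2 read 0.00 ± 0.26 with DMPT and 0.90 ± 0.33 with p-toluidine and was not called. The partner Maff (0.57 ± 0.14) and the related factor Nfe2l1 (0.30 ± 0.08) were called with DMPT, and Nfe2l1 (0.37 ± 0.09) with p-toluidine. With DMPT the call of Maff was lost without the arrays of narrow spread (limma adjusted p = 0.0707), and that of Nfe2l1 without vehicle replicate 2 (0.0569), without dosed replicate 1 (0.0528), with its probe sets averaged (0.124) and with a beta-actin covariate (0.117). The transcript of NRF2 itself, Nfe2l2, fell with p-toluidine. Its vehicle arrays read 8.26, 8.27, 8.36, 8.50 and 8.35 and its arrays at 60 mg/kg 7.65, 8.06, 7.53, 7.68 and 7.57, and the groups did not overlap. From 20 to 120 mg/kg the change was −0.57 ± 0.10 (limma adjusted p = 0.00338), −0.65 ± 0.10 (0.000104) and −0.34 ± 0.10 (0.0226). The last was lost without vehicle replicate 4 (0.075) or dosed replicate 3, 4 or 5 (0.0567 to 0.0635) and with a beta-actin covariate (0.0759). With DMPT it read −0.11, −0.10 and −0.01, each ± 0.11, at these doses. The difference between the chemicals was 0.46 ± 0.15 (adjusted p = 0.422), 0.55 ± 0.15 (0.891) and 0.33 ± 0.15 (0.709) at these doses, and was not called. Its 95% interval at 60 mg/kg ran from 0.24 to 0.86.

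Hepatocyte markers were among the brightest probe sets, from Tat at the percentile 93.1 to Alb at 100, and their summed level ran from 15.38 to 15.51 over all DMPT arrays; with p-toluidine it lay between 15.18 and 15.32. Serpina1 was lower at 120 mg/kg of DMPT (−0.23 ± 0.05) and Tat at 120 mg/kg of p-toluidine (−0.95 ± 0.23). In bulk liver, fewer cells of a type and less RNA per cell cannot be told apart. Among markers of other cells, the summed level of 6 cholangiocyte genes moved from 6.24 to 6.60 in vehicle to 7.21 to 7.40 at 120 mg/kg of DMPT, and from 5.47 to 5.92 to 6.40 to 6.72 with p-toluidine. Of these 6 only Epcam was called, by 1.47 ± 0.13 and 1.84 ± 0.12, and the defining markers Krt7 and Cftr had means of 1.57 and 1.32 over the 60 arrays. Of 7 pancreatic acinar genes 1, Cela1, was called, at −0.48 ± 0.12 and −0.84 ± 0.10. Of 6 erythroid genes, Ahsp rose in both series and Slc4a1 with p-toluidine. The stellate cell genes Rgs5 (0.43 ± 0.13, DMPT) and Col3a1 (−0.40 ± 0.10, p-toluidine), the Kupffer cell gene Cd5l (−0.49 ± 0.13, p-toluidine) and the dim T cell gene Cd3d (0.25 ± 0.08, DMPT) were also called at 120 mg/kg. The part of these markers in the values of the redox supply genes was not tested.

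The 3′ minus 5′ difference of the beta-actin control probe sets, a gauge of RNA integrity, went from 1.48 ± 0.15 (SD, n = 5) in vehicle to 1.28 ± 0.08 at 120 mg/kg of DMPT and from 1.80 ± 0.15 to 1.52 ± 0.09 with p-toluidine. With it as a covariate, 4 of the 7 redox supply genes were called at 120 mg/kg of DMPT and 3 at 120 mg/kg of p-toluidine, where Gss was lost. In the DMPT series 5 arrays had a narrower spread of values than the rest (1 at 6, 2 at 60 and 2 at 120 mg/kg). Without them 4 genes were called at 120 mg/kg. The share of all genes called was not taken in these fits, so nothing is read from the counts.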

How the data were processed

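Liver RNA of 60 rats' samples was hybridized to one-colour Affymetrix 3′ arrays, 1 array a sample. The authors deposited RMA values (the submitters' processing notes name RMA and give no version), taken here as log2 expression values per probe set. The log2 scale was inferred from RMA and from the range of values, 0.0507 to 13.9, and every fold depends on it. Array medians ran from 3.54 to 3.62 (DMPT) and from 2.73 to 2.81 (p-toluidine), so chemicals were fitted apart and only responses were compared between them. No read depth applies, and precision is limited by the number of arrays. No 2 arrays had the same values (highest r 0.996).

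Of 31099 probe sets, 31042 were tested, leaving out 57 controls and filtering nothing else. GEO's platform annotation, with symbols brought up to date by gene ID from RefSeq, gave 20826 probe sets 1 symbol, 436 several and 9780 none. Group means were fitted with limma 3.58.1 in R 4.3.3 (lmFit, eBayes; 6 groups and 30 arrays a chemical, or 12 groups and 60 arrays for differences between chemicals), with p-values adjusted by Benjamini-Hochberg across the array and calls at 0.05. The fit was tested on simulated data. The series' design names ORIOGEN, which was not used here.

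The genes described, the pathway lists and the marker lists were chosen with earlier results of these data known, and no list was tested. Named are the redox supply genes, for each list up to 4 genes, those with the largest changes at 120 mg/kg in either series, and the 3 genes most correlated with each redox supply gene. Titles number replicates 1 to 5 in every group. The mean correlation of same-numbered arrays' deviations from the group means was −0.0011 (DMPT) and −0.0043 (p-toluidine). No shared effect of the number was thus seen, but whether the numbers pair the samples is not stated.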

Additional observations from a re-analysis of the deposited data

Results flagged for a closer look

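Of 84 groups of 5 arrays (7 redox supply genes in 12 groups), 1 held an array far from the others. The Srxn1 value of replicate 3 at 60 mg/kg of DMPT was 5.318, while the other 4 arrays of that group lay between 5.627 and 5.717, and the gap was 0.776 of the group's range. The array is among the 5 of narrow spread. Chance alone marks about 1 in 20 such groups.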

How the results depend on the processing

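No redox supply gene changed direction while called, under 10 alternatives and each left-out replicate. Of the alternatives' results for these genes 2407 kept their side of the threshold, 28 gained a call and 15 lost one, with no count in the difference between the chemicals moving from 0. Counts of called redox supply genes moved at the lower doses. At 6 mg/kg of DMPT the count went from 0 to 1 (Gclm) with quantile normalization over all arrays, with bright probe sets only and with a trended, robust eBayes. At 20 mg/kg of DMPT it went from 1 to 4 (quantile normalization; each gene's probe sets averaged), to 3 (bright probe sets only; array weights) and to 2 (without the narrow arrays; beta-actin covariate). At 20 mg/kg of p-toluidine it went from 1 to 4 (bright probe sets only), 3 (array weights), 2 (probe sets averaged; trended eBayes) and 0 (beta-actin covariate). Leaving out single replicates gave 0 to 1 at 6 mg/kg of DMPT (1 without dosed replicate 1), 1 to 2 at 20 mg/kg of DMPT (2 without dosed replicate 1) and 0 to 3 at 20 mg/kg of p-toluidine (0 without vehicle or dosed replicate 2 or 3, 3 without vehicle replicate 1, 2 without dosed replicate 4); at 60 mg/kg it gave 3 to 4 and 4 to 4, and at 120 mg/kg 3 to 4 and 3 to 5. Of the other pathway genes, 3 at 6 mg/kg of DMPT became 0 with only the groups compared in the fit and 5 with bright probe sets only (2 to 4 without single replicates). At 6 mg/kg of p-toluidine 0 became 1 with only the groups compared, at 20 mg/kg 8 became 13 with bright probe sets only, and at 60 mg/kg 28 became 17 with only the groups compared. Without single replicates the other counts ran from 10 (without vehicle replicate 1 or dosed replicate 2 or 3) to 17 (20 mg/kg), 22 to 25 (60 mg/kg) and 29 to 36 (120 mg/kg) for DMPT and from 6 to 9, 24 to 28 and 45 to 52 for p-toluidine. A fit with the replicate number as a block gave the same counts of redox supply genes, and 36 and 52 other pathway genes at 120 mg/kg against 36 and 51. Causes were not tested. The share of all genes called was taken in the main fit only, so nothing about the genes is read from these counts. The dim Srxn1 probe sets and Slc7a11 lie where arrays resolve little.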

Other observations

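Deviations of each array from its group mean were correlated between the 7 redox supply genes, in 42 relations over both chemicals (30 arrays each, 100000 permutations within groups, Benjamini-Hochberg adjusted over the 42). These relations were examined after the values had been seen. Of the 42, 38 were positive and 3 passed an adjusted permutation p of 0.05, all with DMPT. Gclc varied with Gss (r = 0.631, adjusted permutation p = 0.0168; rho = 0.605, adjusted p = 0.0365), with r = 0.643 without the 2 arrays farthest out and 0.57 without the narrow arrays. Gclc also varied with Txnrd1 (r = 0.607, adjusted permutation p = 0.0309; rho = 0.599, adjusted p = 0.0498), with r = 0.493 and 0.529 in the same checks. Gclm varied with Gsr (r = 0.586, adjusted permutation p = 0.0309), but its rho of 0.477 did not pass (adjusted p = 0.129), and r was 0.448 without the 2 arrays farthest out. With p-toluidine the same 3 relations had r of 0.326, 0.375 and 0.456 and none passed (adjusted permutation p of 0.187, 0.181 and 0.129). Whether the relations differ between the chemicals was not tested.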
